A study of Mus musculus with 3 samples.

Results

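The genes described here encode the enzymes that oxidise, reduce, hydrolyse and conjugate drugs, pollutants, steroids and other small lipophilic molecules. They were chosen by name on a mouse array. Every gene was taken whose symbol in the files begins with the stem of the cytochrome P450 (Cyp), flavin monooxygenase (Fmo), alcohol dehydrogenase (Adh), UDP-glucuronosyltransferase (Ugt), sulfotransferase (Sult), carboxylesterase (Ces), aldehyde oxidase (Aox) or aldo-keto reductase (Akr) families followed by a digit, and Inmt and Glyat were added. Cyp51, which serves cholesterol synthesis, was left out. The rule gave 133 genes with 193 probes, of 27672 genes with 41174 probes on the array, and used no measured value.

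The study set total RNA of neural stem cells with the genotype Dnmt3a-/- (labelled KO, dye Cy3) against RNA of wildtype neural stem cells (labelled WT, dye Cy5) on 3 two-colour arrays, each described as a biological replicate. Both kinds of cell came from mouse embryonic stem cells by neurosphere culture and were grown in N2B27 medium with EGF and bFGF. The labels do not say how many independent lines lie behind each genotype or which part of Dnmt3a was deleted. The dyes were never swapped, so a dye bias of a probe and a difference in genotype cannot be told apart.

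Dnmt3a, which encodes a DNA methyltransferase that sets new methyl marks, went against its label. At its brightest probe the log2 ratio (labelled KO over labelled WT) was 1.07, 0.97 and 0.92 on arrays 1, 2 and 3, a mean of 0.99 ± 0.08 (SD, n = 3; limma, adjusted p = 9.06e-07). A probe outside the deleted part would not show the loss. Directions are therefore given by label, as labelled KO relative to labelled WT, and would turn with the labels.

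Xenobiotic metabolism is commonly described in stages. Oxidation, reduction or hydrolysis by P450s, flavin monooxygenases, aldehyde oxidases, aldo-keto reductases and esterases first exposes or adds a reactive group. Transferases then attach glucuronic acid, sulfate, glycine, glutathione or a methyl group, and membrane pumps export the product. These enzymes are best known from liver, but several P450s and transferases also act on neurosteroids, oxysterols, retinoids and vitamin D in neural and connective tissue.

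Most of these genes were dim or not well above background in the neural stem cells. Of the 133, 62 were well above background, by the scanner's own mark, in both channels of every array. Another 9 reached this on every array for the RNA labelled WT but not for the RNA labelled KO, and 1, Glyat, for the RNA labelled KO alone. These 72 genes (54.1%, against 65.2% of all genes on the array) were tested. A further 15 were well above background on some arrays only and 46 on no array. The latter held classical hepatic enzymes such as Cyp1a1, Cyp1a2, Cyp2e1, Cyp7a1, Ugt1a1 and Aox3. Among the probes, 70 of 193 were well above background in both channels throughout and 90 on no array.

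**Figure D1:**
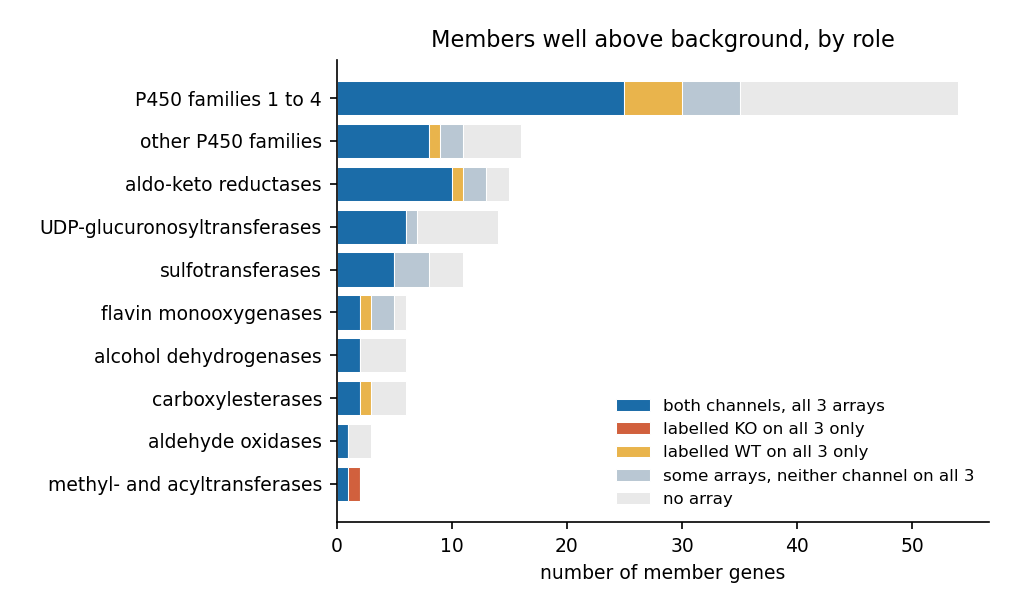
Number of member genes (horizontal axis) in each enzyme role, split by whether a probe passed as well above background in both channels of every array, in 1 channel of every array, on some arrays, or on none. P450 families 1 to 4 hold the most members, 54, of which 25 were well above background in both channels and 19 on no array.

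The tested members were dimmer than other genes on the array. In 54 of 72 (75%) the brighter channel lay below 8 on the log2 intensity scale, against 44.3% of all 18034 genes tested. The background correction adds an offset that draws the ratios of dim genes toward 0. Beside this, the markers of other cell types were read. All neural stem cell markers on the array were tested, and 2 were higher and 6 lower of 11. Their levels differed widely. Nes was at a log2 intensity of 12.2 in the channel labelled KO and 12.3 in the channel labelled WT. Sox1, Pax6, Hes5 and Prom1 lay below 8 in both channels, and the rest above 8. Over all genes tested, 22.6% were higher and 25.5% lower. Of the markers of hepatocytes and visceral endoderm, Alb, Afp, Ttr, Apoa1 and Apoa2 were well above background on no array. The transcription factors Foxa2, Gata4, Sox17 and Hnf4a of the same list were so in both channels throughout, and Foxa2 was higher at 0.29. Of the embryonic stem cell markers 4 were tested and 2 were higher, Klf4 at 0.59 and Dppa5a at 0.17, while Nanog, Zfp42 and Dppa3 were well above background on no array. Fibroblast or feeder markers were mostly bright, though Tcf21 lay at log2 intensities of 6.16 (labelled KO) and 6.24 (labelled WT). All 10 listed genes were tested. In the RNA labelled KO 1 was higher, Postn at 0.95, and 6 were lower, Col1a2 the most at -1.48. The summed intensity of the 10 was 161009 to 166339 in the channel labelled KO and 208535 to 228096 in the channel labelled WT. Their part in the results was not tested. In bulk RNA, fewer cells of a type and less RNA per cell cannot be told apart.

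The comparison asked which of these genes differ between the RNAs of the 2 genotypes. A few conjugating and oxidising enzymes were much higher in the RNA labelled KO, and no member was lower by 1.5-fold or more. Of the 72 tested members, 16 (22.2%) were higher, 14 (19.4%) lower and 42 did not pass the threshold (limma, adjusted p under 0.05 over all genes tested). The background over all genes was 22.6% higher and 25.5% lower, or 48.0% in either direction, so the number of members past the threshold was no larger than elsewhere on the array. The median log2 ratio was 0.02 over the members and -0.01 over all genes, and the median absolute ratio was 0.09 and 0.10.

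A few members showed larger increases. At least 1.5-fold higher were 7 of 72 (9.72%), against a background of 1.95% (3.99% in either direction). Without Inmt and Glyat, which the rule adds by name, they were 6 of 70 (8.57%). Among 81 other tested genes of the pathway, 11 (13.6%) were at least 1.5-fold higher. At least 1.5-fold lower were 0 members by limma, also at an unadjusted p, against a background of 2.04%. The absence of larger decreases depended on the processing. With offset 10 or with median centring 3 members were at least 1.5-fold lower, and 5 were with the scanner's processed signals or the authors' deposited table. The number at least 1.5-fold higher was 4 to 8 under all settings tried. Since members and lists were chosen with earlier results of these data known, these shares describe the set and were given no test of their own.

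With median centring of each array in place of loess, the all-gene median was -0.26, and the split of members changed from 16 higher and 14 lower to 7 and 19. Over all genes tested, that setting gave 4.07% higher and 52.1% lower. All 14 lower members kept their direction, 5 of the 16 higher ones turned (Cyp7b1, Adh5, Akr1a4, Cyp2j6 and Sult5a1), and so did 23 of the 42 that had not passed. With the background model fitted on all spots, it was 9 and 3. The p-values measure only the spread between these 3 arrays.

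**Figure D2:**
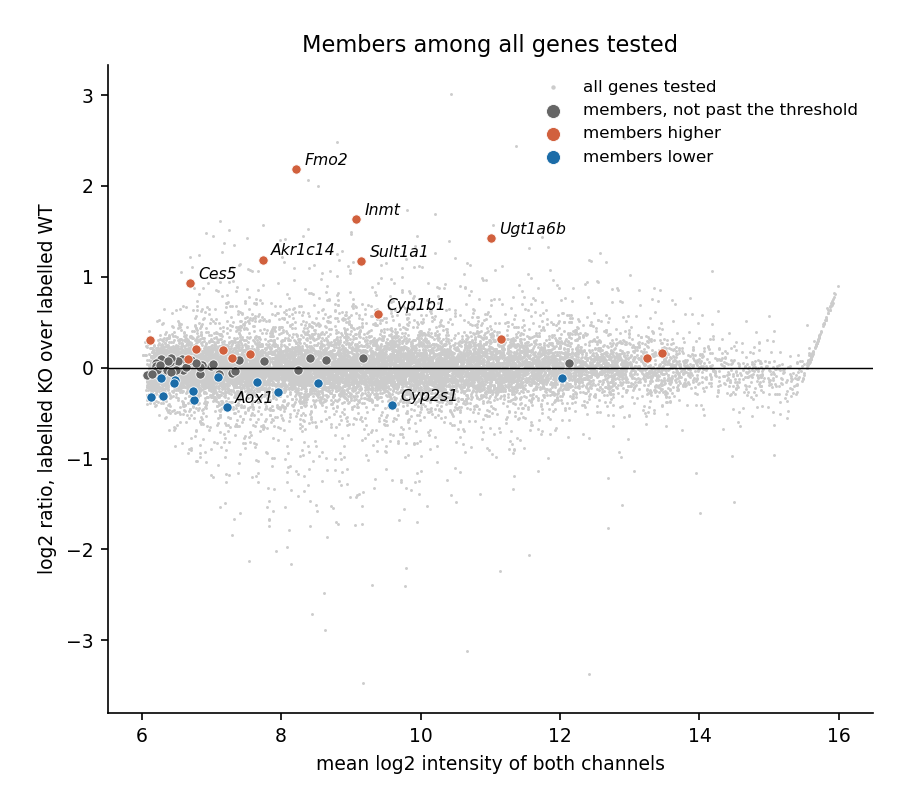
Log2 ratio, labelled KO over WT (vertical axis, mean of 3 arrays) against the mean log2 intensity of both channels (horizontal axis) for all 18034 genes tested in light grey and the 72 tested members as larger points, orange where higher, blue where lower and dark grey where not past the threshold. Fmo2 at 2.19 is the highest member, and no member lies below -0.44.

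The 7 members at least 1.5-fold higher are read by the following oligonucleotides. The first 30 of the 60 bases of each array probe are printed 5′ to 3′ in the order of the files, because the values rest on RNA that pairs with these sequences. Positions are on mouse build mm7, as the files give them.
Fmo2, chr1:162837701-162837760: cttctttttccaacttcaggggttttaatc
Inmt, chr6:55134146-55134205: cgaatcgccttccctgggaaagttatagca
Ugt1a6b, chr1:88122519-88122578: ttgtgccggaatttgatgaaaaccaaagta
Akr1c14, chr13:3974319-3974378: tcaagacagactgctagactggatgtttat
Sult1a1, chr7:122769649-122769708: aaatatgagtggatatggctatactgggaa
Ces5, chr8:103533131-103533190: tagagatgatatagaagagaaaagaatccc
Cyp1b1, chr17:78002920-78002979: actacattaagcagatagatcaccatgtat
The families hold close relatives, so all member probes were compared with each other. No probes of different members shared 85% or more of their bases over an overlap of 40 or more. Probes of relatives can lie at different positions, so whether a probe also pairs with a relative's RNA was not tested. The exons and UTRs in which these probes lie were not analysed here.

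Among the oxidising enzymes, Fmo2 rose most. It is a flavin-containing monooxygenase, best known from lung, which oxidises nitrogen and sulfur atoms of amines and thiols with NADPH. The log2 ratio of Fmo2 was 2.26, 2.17 and 2.14 on arrays 1, 2 and 3, all far above 0. The mean was 2.19 ± 0.06 (SD, n = 3; limma, adjusted p = 1.99e-08), or 4.56-fold, the 5th highest of all genes tested. The array carries a further pair of Fmo2 probes, shown here because they read the same gene at other positions.
Fmo2, chr1:162836404-162836463: acattataggtaagaaaagcaaatctcagc
Fmo2, chr1:162849175-162849234: tcagatcatcttgaattatacttggaatta
The first of these was higher by 0.87 ± 0.13 and the second by 0.27 ± 0.14 (SD, n = 3), both past the threshold when all probes were tested. In the WT channel the second never rose well above background. All 3 probes thus gave the same direction with different sizes. Fmo1, the hepatic and renal form in adult rodents, was higher by 0.10 ± 0.04 (SD, n = 3; limma, adjusted p = 0.0419). Fmo5 was at -0.02 ± 0.06 and did not pass. Of the 6 flavin monooxygenases on the array, these 3 were tested.

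P450 families 1 to 4, the main drug- and fatty acid-oxidising P450s, showed few increases. Of 54 members 30 were tested, of which 2 (6.67%) were higher and 6 (20%) lower, beside 22.6% and 25.5% of all genes. The other 22 did not pass. Those 22 lay between -0.07 and 0.11. Cyp1b1 had the largest increase. It oxidises polycyclic aromatic hydrocarbons and estradiol, and is expressed mainly outside the liver. Its log2 ratio was 0.49, 0.60 and 0.68 on arrays 1, 2 and 3, all above 0. The mean was 0.59 ± 0.10 (SD, n = 3; limma, adjusted p = 2.16e-05), or 1.51-fold. With median centring it was 0.21 and no longer passed (adjusted p = 0.135). The other member to rise was Cyp2j6, an arachidonic acid epoxygenase, at 0.15 ± 0.06. It turned to -0.06 with median centring (adjusted p = 0.496) and was at 0.05 with the background model fitted on all spots (adjusted p = 0.128).

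The decreases in these P450 families were small as reported, but for dim genes their size depended on the processing. Cyp2s1, a P450 found mainly in epithelia outside the liver, was lower at -0.41 ± 0.14 (SD, n = 3; limma, adjusted p = 0.000416), with log2 intensities of 9.38 in the channel labelled KO and 9.79 in the channel labelled WT. Cyp2j9, another arachidonic acid-metabolising form, was lower at -0.35 ± 0.06. Cyp2r1, the vitamin D 25-hydroxylase, was lower at -0.32 ± 0.10. The scanner marked it as above background in the WT channel of every array and in the KO channel of none. As processed here, that put its RNA at least 1.22-fold higher in the former. This and the other bounds compare the bright channel with the larger of the measured dim signal and the lowest signal marked as above background. They depend on the processing and are open to dye bias. With median centring Cyp2r1 was at -0.18 and did not pass (limma, adjusted p = 0.118). Cyp2d22, a mouse relative of the human debrisoquine hydroxylase CYP2D6, was lower at -0.32 ± 0.09 by its brightest probe, which in the KO channel was well above background on no array. A second probe of the gene at -0.07 ± 0.07 did not pass. Cyp4b1 at -0.26 ± 0.03 and Cyp4a12, a fatty acid hydroxylase, at -0.13 ± 0.06 were the remaining decreases. With the background model fitted on all spots, the values of Cyp2j9, Cyp2r1 and Cyp2d22 were -0.05, -0.03 and -0.04 and none passed. With the scanner's processed signals they were -0.78, -2.62 and -1.55 and all passed. Cyp2b10, an inducible P450, was marked as above background for the RNA labelled WT alone, at -0.05 ± 0.06, and did not pass the test. Its bound of 1.04-fold equals the measured ratio and sets no minimum.

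The other P450 families, which act on sterols, steroids, retinoids and vitamin D, gave 2 higher and 4 lower of 9 tested among 16 members. Over all genes tested, 22.6% were higher and 25.5% lower. Cyp7b1, the oxysterol and neurosteroid 7α-hydroxylase and the brightest of these P450s, was higher at 0.31 ± 0.05 (SD, n = 3; limma, adjusted p = 0.000234) with a log2 intensity of 11.3 in the channel labelled KO. It turned to -0.15 with median centring. Cyp39a1, another oxysterol hydroxylase, was higher at 0.20 ± 0.08. The genes that fell were Cyp24a1, which inactivates vitamin D hormone, at -0.25 ± 0.04, Cyp20a1, a P450 of unassigned substrate, at -0.17 ± 0.09, Cyp17a1, which makes androgen precursors, at -0.16 ± 0.08, and Cyp46a1, the neuronal cholesterol 24-hydroxylase, at -0.10 ± 0.04. The retinoic acid hydroxylases did not pass, with Cyp26b1 at 0.08 ± 0.06 and Cyp26a1 at -0.07 ± 0.07. Cyp26a1 was marked as above background for the RNA labelled WT alone. Its bound of 1.05-fold equals the measured ratio and sets no minimum.

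Among the enzymes of alcohol, aldehyde and ketone metabolism, 1 gene showed a large increase. Akr1c14, a 3α-hydroxysteroid dehydrogenase that reduces dihydrotestosterone and dihydroprogesterone, had log2 ratios of 1.10, 1.18 and 1.29 on arrays 1, 2 and 3. The mean was 1.19 ± 0.10 (SD, n = 3; limma, adjusted p = 6.13e-07), or 2.28-fold, and every array lay well above 0. Under the background model fitted on all spots it was 0.37. Akr1a4 (now Akr1a1), the general aldehyde reductase and the brightest member of its family, was higher at 0.16 ± 0.08, and Adh5, which clears formaldehyde with glutathione, at 0.11 ± 0.01. Both turned negative with median centring, to -0.40 and -0.44. Of the remaining aldo-keto reductases, Akr1c19 at -0.17 ± 0.02, Akr1b3, the aldose reductase, at -0.12 ± 0.02 and Akr1c6 at -0.11 ± 0.04 were lower, and 6 did not pass, between -0.08 and 0.11. Akr1c12, which did not pass, was marked as above background for the RNA labelled WT alone. Its bound of 1.06-fold equals the measured ratio and sets no minimum. Adh1, the classical ethanol dehydrogenase, was at 0.09 ± 0.05 and did not pass.

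Aox1, a molybdenum-containing aldehyde oxidase that acts on azaheterocycles and retinal, showed the largest decrease of any member under the reported processing. Its mean was -0.44 ± 0.09 (SD, n = 3; limma, adjusted p = 9.19e-05), or 1.35-fold, which ranked 634th from the lowest among all genes tested. It did not pass with the background model fitted on all spots, at -0.09 (adjusted p = 0.082). Its place among members changed with the setting. With the scanner's processed signals Aox1 was at -0.75, beside Cyp2r1 at -2.62 and Cyp2d22 at -1.55. With median centring it was at -0.60, beside Cyp2s1 at -0.81. Aox3 and Aox4 were well above background on no array.

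Ces5 was the only carboxylesterase to pass, of 3 tested. Carboxylesterases cleave ester and amide bonds of drugs and lipids, and the gene is now named Ces2e. Its log2 ratio was 0.95, 0.93 and 0.92 on arrays 1, 2 and 3, nearly the same on each. The mean was 0.93 ± 0.01 (SD, n = 3; limma, adjusted p = 4.61e-07), or 1.91-fold. It was 0.15 with the background model fitted on all spots, 1.53 with offset 10 and 2.37 with the scanner's processed signals, which differ in normalization too. Its log2 intensity was 6.23 in the channel labelled WT. A second Ces5 probe was well above background on no array. Ces6 and Ces2, at 0.07 ± 0.04 and 0.02 ± 0.03, did not pass.

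Among the conjugating enzymes, Inmt, Ugt1a6b and Sult1a1 rose by more than 2-fold. Ugt1a6b belongs to the enzymes that attach glucuronic acid to small planar phenols. Its log2 ratio was 1.39, 1.46 and 1.41 on arrays 1, 2 and 3. The mean was 1.42 ± 0.03 (SD, n = 3; limma, adjusted p = 8.14e-08), or 2.68-fold. It was the brightest of the 7 large increases, with log2 intensities of 11.7 in the channel labelled KO and 10.3 in the channel labelled WT, and it kept 0.97 to 1.45 under the settings shown in the plot of ratios by setting. The mouse Ugt1a forms are made from alternative first exons joined to shared later exons. A second Ugt1a6b probe, at chr1:88010877-88010936 (mm7), was well above background on no array, as were the genes Ugt1a1 and Ugt1a9, so which Ugt1a form the bright probe read cannot be told apart here. Ugt2a1, an olfactory form, was higher at 0.20 ± 0.14, and the other 4 tested did not pass. The call of Ugt2a1 was lost with the background model fitted on all spots, at 0.03 (limma, adjusted p = 0.103). It was also lost with median centring, at 0.14 (adjusted p = 0.198). The remaining Ugt2a1 probes were well above background on no array.

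Sult1a1, the phenol sulfotransferase, had log2 ratios of 1.14, 1.22 and 1.15 on arrays 1, 2 and 3. The mean was 1.17 ± 0.04 (SD, n = 3; limma, adjusted p = 2.14e-07), or 2.25-fold. Of the 11 sulfotransferases 5 were tested, and the only other one to pass was Sult5a1 at 0.11 ± 0.07 (adjusted p = 0.0441). Sult4a1, a brain form, was at 0.08 ± 0.07 and Sult1e1, which sulfates estrogen, at 0.03 ± 0.02, and neither passed.

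Inmt, which transfers methyl groups from S-adenosylmethionine to tryptamine and related amines, was the second highest member. Its log2 ratio was 1.64, 1.64 and 1.63 on arrays 1, 2 and 3, the smallest spread of the 7. The mean was 1.64 ± 0.01 (SD, n = 3; limma, adjusted p = 4.61e-08), or 3.11-fold, the 10th highest of all genes tested. Glyat, which conjugates acyl-CoAs with glycine, was higher at 0.31 ± 0.05 (adjusted p = 0.000253). It was marked as above background in the KO channel of every array and in the WT channel of none. As processed here, that is a bound of at least 1.23-fold. With the background model fitted on all spots it was at 0.03 and did not pass (adjusted p = 0.126).

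**Figure D3:**
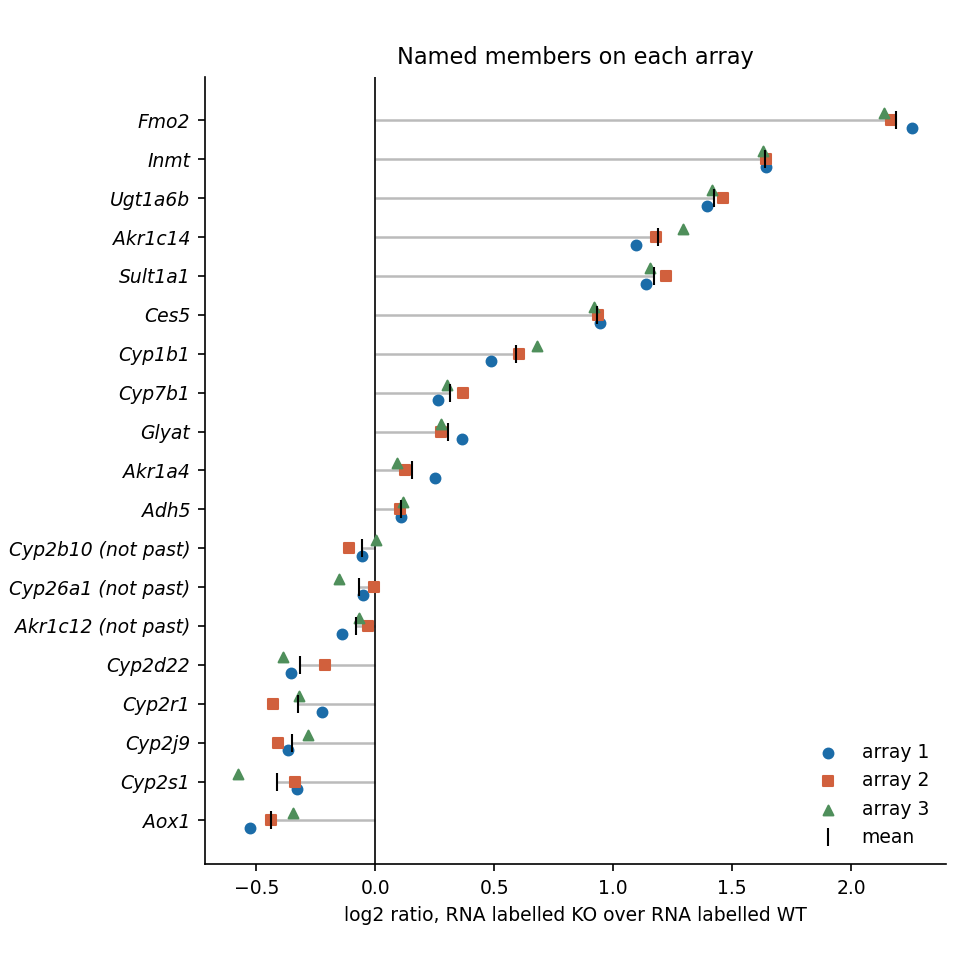
Log2 ratio, labelled KO over WT (horizontal axis), of the named members on arrays 1, 2 and 3 (circles, squares, triangles), with their mean as a vertical tick. The 7 members at the top lie between 0.49 and 2.26 on every array, and Aox1 at the bottom has a mean of -0.44.

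Fmo2, Akr1c14 and Ces5 lay in clusters of relatives whose other tested members differed little. Of 131 members placed in gene order through RefSeq, 92 lay in 21 neighbourhoods of 2 or more members separated by at most 3 steps. The neighbourhoods described were picked after their values had been seen. On chromosome 1 Fmo2 at 2.19 lay beside Fmo1 at 0.10. On chromosome 13 Akr1c14 at 1.19 lay among 6 other tested aldo-keto reductases between -0.17 and 0.09. On chromosome 8 Ces5 at 0.93 lay beside Ces6 at 0.07 and Ces2 at 0.02. Relatives with older names in the files were not members and were not placed. Of the Ces2 subfamily among them, Ces2g was higher at 0.52 and Ces2b, at 0.07, did not pass. Neighbours also differed in direction on chromosome 4, where Cyp2j6 was higher at 0.15, Cyp2j9 lower at -0.35 and Cyp2j13 not past the threshold at 0.09. Inmt, Sult1a1 and Cyp1b1 had no member beside them in gene order, and Ugt1a6b had no other tested one. These values set each gene's own ratio beside its neighbours' and were given no further test.

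**Figure D4:**
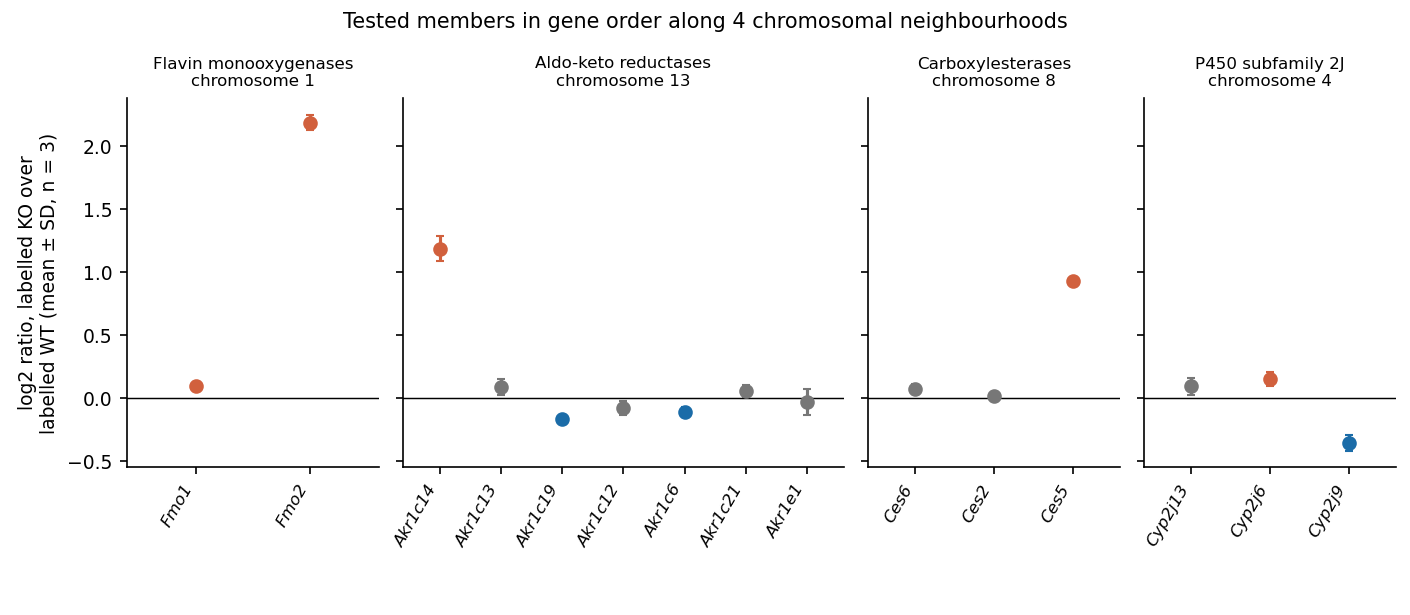
Mean log2 ratio, labelled KO over WT (vertical axis, bars are SD over 3 arrays) of the tested members in gene order along 4 neighbourhoods. Orange points were higher, blue lower and grey not past the threshold. In the first 3 panels 1 gene, Fmo2, Akr1c14 or Ces5, lies near or above 1 and the others between -0.17 and 0.10.

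Promoters were read because Dnmt3a acts on CpG sites, although methylation was not measured here. RefSeq promoters of 300 bases (250 before to 50 after the start, build GRCm38.p6) were matched for 106 of the 133 members. For a gene with more than 1 start, such as Fmo2 with 2, only the first listed was read. The members' promoters were poor in CpG, with a median of 2 sites, against 7 over all 27025 promoters and 19 over tested genes with a promoter. The median was 2 in the 6 of the 7 large increases that had a promoter, 2.5 in the 12 members that were higher, 7 in the 9 that were lower and 2 in the 36 that did not pass. The 250 bases before the start are printed 5′ to 3′ for the members with the fewest and the most CpG among those 6, with CG in capitals.
Inmt, chr6:55174991-55175240, minus strand: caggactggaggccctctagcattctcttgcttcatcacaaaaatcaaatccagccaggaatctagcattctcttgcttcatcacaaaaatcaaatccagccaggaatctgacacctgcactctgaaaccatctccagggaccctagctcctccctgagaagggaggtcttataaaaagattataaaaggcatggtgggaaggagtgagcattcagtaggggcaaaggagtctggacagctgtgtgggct
Cyp1b1, chr17:79715062-79715311, minus strand: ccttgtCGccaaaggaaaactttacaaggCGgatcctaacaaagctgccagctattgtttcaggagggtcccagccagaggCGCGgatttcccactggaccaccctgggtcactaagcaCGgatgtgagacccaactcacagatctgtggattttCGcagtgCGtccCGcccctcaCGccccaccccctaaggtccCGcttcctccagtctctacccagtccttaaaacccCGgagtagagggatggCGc
The Inmt stretch holds 0 CpG and the Cyp1b1 stretch 12, so large increases occurred with both kinds of promoter. Sult1a1 also had 0 CpG over the 300 bases, Akr1c14 and Ces5 had 2 and Fmo2 had 5. The core of the aryl hydrocarbon receptor element, GCGTG on either strand, was in 20 of 106 member promoters (18.9%) and in 32.5% of all promoters (48.2% of those of tested genes). It was in 2 of 12 promoters of higher members and in 5 of 9 of lower ones. Among the large increases it was found at Cyp1b1 and Akr1c14 and in none of the other 4 with a promoter. The antioxidant response element TGACNNNGC was in 7 member promoters (6.60%) and in 12.5% of all, and in none of these 6. A match is a description of letters in this window only.

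The other genes of the pathway, a list of 99 electron donors, sensors, further oxidising and conjugating enzymes and exporters, held many increases. Of 81 tested, 43 (53.1%) were higher and 16 (19.8%) lower, beside the background of 22.6% and 25.5%, and 22 did not pass. With median centring the balance turned, to 13 higher and 35 lower, beside 4.07% higher and 52.1% lower over all genes in that setting. At least 1.5-fold higher were 11 and at least 1.5-fold lower 2. The list was drawn up with earlier results known, so the counts are a description.

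Electron donors and cofactor suppliers gave 7 higher and 2 lower of 17 tested, beside 22.6% and 25.5% of all genes. Por, the reductase that passes electrons to microsomal P450s, was higher at 0.26 ± 0.04 (SD, n = 3) and turned to -0.25 with median centring. Papss1, which makes the sulfate donor used by Sult1a1, was at -0.0039 ± 0.02 and did not pass.

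Of the sensors, 4 were higher and 1 lower of 11 tested, beside 22.6% and 25.5% of all genes. Ahr, the aryl hydrocarbon receptor known to induce Cyp1b1 and Ugt1a6 genes, was higher at 0.84 ± 0.06 (SD, n = 3; limma, adjusted p = 1.56e-06), and at 0.17 with the background model fitted on all spots. Nfe2l2, the factor that binds antioxidant response elements, was higher at 0.57 ± 0.04 but at 0.05 with median centring, which did not pass (adjusted p = 0.715). Nr1i2 and Nr1i3, the drug-sensing nuclear receptors of liver, were not tested because neither channel was well above background on all arrays. Cyp1a1, the best known target of Ahr, was well above background on no array.

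Glutathione transferases made up most of the large conjugation differences. Of 28 other conjugating genes tested, 16 were higher and 7 lower, beside 22.6% and 25.5% of all genes. Gsta3 was higher at 1.15, Gstm1 at 1.06, Gsto1 at 0.94, Gstm3 at 0.86, Gsta1 at 0.68 and Gsta4 at 0.55, and the membrane-bound forms Mgst2 and Mgst1 at 0.72 and 0.65. Gstm5 at -0.91 and Gstk1 at -0.52 were lower, so the family did not move in 1 direction. Among the other oxidising and hydrolysing enzymes, Ephx1, the microsomal epoxide hydrolase, was higher at 1.07, Cbr3, a carbonyl reductase, at 0.58 and Maoa, a monoamine oxidase, at 0.52, whereas Pon3, a lactonase, was lower at -1.26. Of 7 exporters tested 6 were higher, beside 22.6% of all genes, led by Abcb1b at 0.93, Abcc1 at 0.63, Abcg2 at 0.58, Abcb4 at 0.58 and Abcc5 at 0.53. With median centring Abcc1 was at 0.20, Abcc5 at 0.14, Abcg2 and Cbr3 at 0.08 and Maoa at 0.07. The background model fitted on all spots brought Pon3 to -0.27, Abcb1b to 0.32, Abcb4 and Gsta4 to 0.20 and Gsta1 and Mgst2 to 0.16. These still passed, and the brighter Gstm1 and Gsta3 stayed at 1.05 and 0.99. Each value as reported is a mean log2 ratio of 3 arrays with an SD of at most 0.14.

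For Fmo2 and Inmt, the values spread more widely between processing settings than between arrays. Fmo2 ranged from 0.95 with the background model fitted on all spots to 2.75 with the scanner's processed signals, and Inmt from 1.01 with that model to 1.79 with the authors' deposited table. Across the 72 tested members the arrays' log2 ratios correlated at r = 0.976 to 0.977, where the arrays share probes and dye orientation. Fmo2, Inmt, Ugt1a6b, Akr1c14, Sult1a1 and Ces5 remained higher and past the threshold without any 1 of the replicates, at 0.93 or more.

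**Figure D5:**
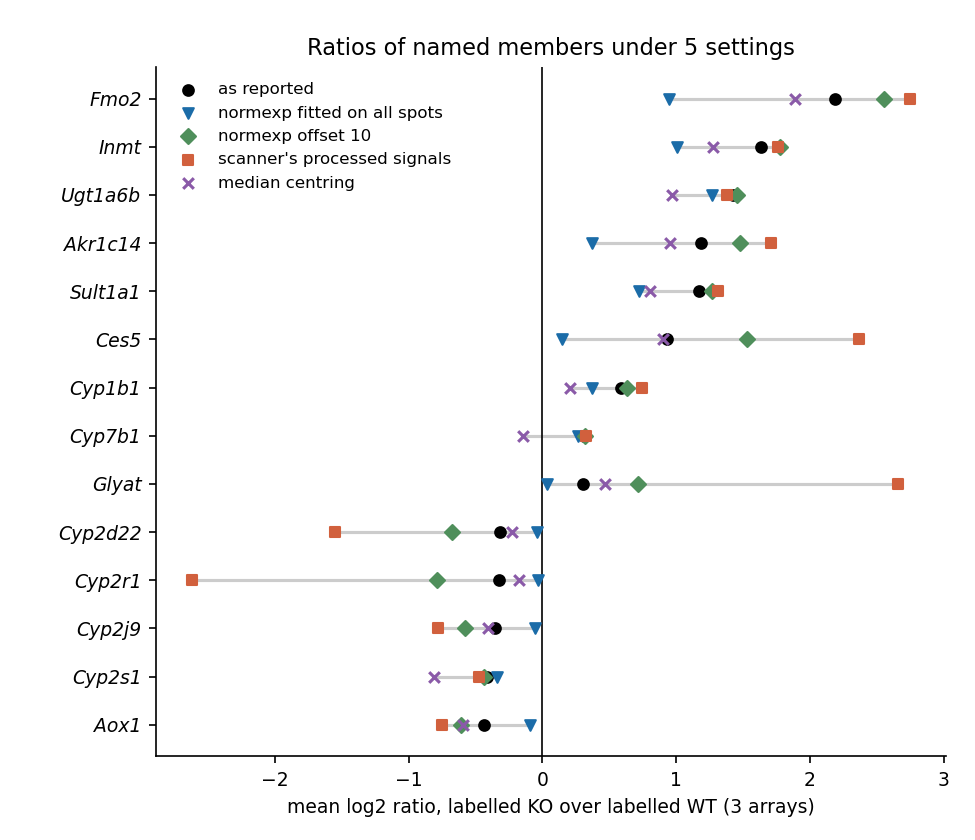
Mean log2 ratio, labelled KO over WT (horizontal axis) of the members named for a difference of 0.3 or more, as reported and under 4 other settings. Fmo2, Inmt, Ugt1a6b, Akr1c14, Sult1a1, Ces5 and Cyp1b1 lie above 0 under all 5, Cyp7b1 crosses 0 with median centring, and dim genes such as Ces5, Glyat and Cyp2r1 spread most.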

How the data were processed

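Total RNA labelled KO and labelled WT was measured on 3 two-colour arrays of 1 slide, 1 array per replicate. Per the file headers, the deposited spot and background intensity values came from Agilent Feature Extraction 9.5.3.1, with probe positions on build mm7. The deposited log10 ratios of red to green, as the file headers name them, served to check direction. The authors' deposited value table correlated with that ratio at r = -0.998, -0.996 and -0.992 on arrays 1, 2 and 3, so its values were taken as log2 ratios with labelled KO as numerator. Its column medians were 0.0276, and the sources used here do not give its centring.

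Intensities were corrected with normexp (offset 50, limma 3.58.1, R 4.3.3), fitted on spots without the scanner's outlier marks, and normalized by loess with control spots at weight 0. That choice of spots came from an earlier analysis made after seeing the data. Marked spots numbered 170, 173 and 242 and were left out. Well above background were 63.6% to 65.0% of probes in the channel labelled KO and 65.5% to 68.8% in the channel labelled WT. A probe was tested if well above background on all 3 arrays in either channel. The probe with the highest average intensity stood for a gene, which gave 18034 genes. Mean ratios were tested against 0 with limma (lmFit, eBayes, two-sided) and Benjamini-Hochberg adjustment over all of them, at 0.05. The script was tested on simulated data. The number of arrays limits the precision.

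Members and lists were chosen with earlier results of these data known. Members past the threshold with an absolute log2 ratio of at least 0.3, the brightest of each role and those seen in 1 channel only were named, as were listed pathway genes past the threshold at 0.5 or more with Ahr, Por, Nfe2l2 and Papss1. Other members were named after their values were seen, to account for each role. Alternatives covered background, normalization, source of ratios, filter, probe choice, pairing and single replicates. Current symbols, gene order and promoters came from RefSeq tables of GRCm38.p6, and no mm7 position was converted.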

Additional observations from a re-analysis of the deposited data

How the results depend on the processing

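Members past the threshold numbered 16 higher and 14 lower as reported. With normexp fitted on all spots they were 9 and 3, all of them among the calls as reported, and with median centring 7 higher. Over all genes tested, 12.9% were higher and 17.3% lower with the former, and 4.07% and 52.1% with the latter. The ratio within an array pairs the channels of a replicate number. With no replicate block, the channels taken as separate samples, 9 were lower, beside 17.0% of all genes. Without 1 replicate in turn, 13 to 15 were higher and 8 to 12 lower, beside 17.4% to 21.4% and 19.5% to 22.6% of all genes. The pathway list, at 43 higher and 16 lower, had 13 higher and 35 lower with median centring, 10 lower with the authors' deposited table, 10 lower with no replicate block and 10 to 14 lower without 1 replicate. With the scanner's processed signals 11 of the 16 and 9 of the 14 members remained. Among the genes named by rule, median centring turned the direction of Adh5 (-0.44), Akr1a1 (-0.40), Akr1c12 (0.10), Cyp26a1 (0.0865), Cyp2b10 (0.0845), Cyp7b1 (-0.15) and Por (-0.25), and over all tested members of 5 of 16 higher and 23 of 42 not past the threshold. Papss1, at -0.0039 as reported, turned to 0.0397 with the processed signals and 0.0608 with the authors' table, and lay between -0.0117 and 0.0038 without 1 replicate in turn. The cause was not tested. Of 498 values of 42 named genes under alternatives, 460 kept direction and side of the threshold, 24 lost their call, 4 gained one and 10 turned. A slide block was not run, since there was 1 slide. Signal over background limits most members, since 75% of those tested lay below 8 on the log2 scale in both channels.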

Other observations

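The array also carries 20 genes whose current symbols belong to these families but whose names in the files are older, so the rule did not take them. Of these, 6 were tested, with 2 higher, 1 lower and 3 not past the threshold, beside 22.6% higher and 25.5% lower over all genes. Akr1b10, an aldo-keto reductase that reduces retinal and other carbonyls, was higher in the RNA labelled KO at 0.99 on the log2 scale (limma, adjusted p = 4.06e-07). Ces2g, a carboxylesterase of the same subfamily as Ces5, was higher at 0.52 and was well above background on all 3 arrays in the channel labelled KO and on none in the channel labelled WT. Sult2a8, a sulfotransferase, was lower at -0.36 (limma, adjusted p = 6.79e-05).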
